A study of Mus musculus with 8 samples.

Results

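The mitochondrial genome of the mouse contributes 37 genes to the 55385 rows of the count table, and every one of them is described here. They were found by their symbols, all of which start with mt-, and comprise 13 protein genes, 2 ribosomal RNA genes and 22 transfer RNA genes. Gene expression was measured by RNA-seq of left ventricle from male C57BL6 mice in 4 libraries of Mst1-TG mice and 4 of WT mice. Mst1-TG mice carry a transgene for the Hippo pathway kinase Mst1 behind the alpha-MHC promoter, which is active in cardiomyocytes, and the labels give their disease as experimental dilated cardiomyopathy. WT mice are littermates without the transgene. The series' design text gives an age of 3 weeks, while the RNA protocol in the labels gives 3 months. Adult ages of 15 weeks, in the design text, and of 5.5 months are also given. The transgene is restricted to cardiomyocytes, whereas the RNA came from whole ventricle with all its cell types.

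The mitochondrial genome is a small circle that is transcribed from both strands as long precursors. Most genes are read from the heavy strand, which yields both rRNAs, all but one of the mRNAs and the larger set of tRNAs. The light strand yields mt-Nd6 and the remaining tRNAs. Transfer RNAs lie between most of the other genes, and their excision by RNase P at the 5′ end and ELAC2 at the 3′ end frees the mRNAs and rRNAs. The proteins are core subunits of respiratory chain complexes I, III and IV and of ATP synthase, which carry most of the ATP supply of the beating heart. Their remaining subunits, the RNA polymerase Polrmt, its partners Tfam and Tfb2m and all proteins that process mitochondrial RNA are encoded in the nucleus.

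The table's 37 rows match GENCODE M21 (GRCm38) in identifier, version and symbol, and all positions and sequences here come from that annotation. Where genes share bases, a read can belong to either. The longest shared stretches join mt-Atp8 to mt-Atp6 (43 bases), mt-Nd5 to mt-Nd6 on the opposite strand (14 bases) and mt-Nd4l to mt-Nd4 (7 bases). They are shown because mt-Atp8, mt-Nd4l and the light-strand mt-Nd6 are compared with these partners below. Capitals mark the shared bases, read on the forward strand at chrM:7915-7981, chrM:10155-10185 and chrM:13540-13577.
mt-Atp8 and mt-Atp6: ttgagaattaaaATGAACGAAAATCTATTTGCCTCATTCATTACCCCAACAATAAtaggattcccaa
mt-Nd4l and mt-Nd4: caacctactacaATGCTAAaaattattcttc
mt-Nd5 and mt-Nd6: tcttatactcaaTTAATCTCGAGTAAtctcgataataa

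Among the tRNA genes, mt-Tp (proline) held most of the counts, and its neighbour mt-Tt (threonine) held none. These genes lie next to each other on opposite strands, mt-Tt at chrM:15289-15355 on the forward strand and mt-Tp at chrM:15356-15422 on the reverse strand. The serine tRNA mt-Ts1 (chrM:6870-6938, reverse strand), which follows mt-Co1, came next in counts. Each sequence runs 5′ to 3′ along its own RNA, with the anticodon in capitals.
mt-Tp: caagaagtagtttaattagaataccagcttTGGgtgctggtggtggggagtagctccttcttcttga
mt-Tt: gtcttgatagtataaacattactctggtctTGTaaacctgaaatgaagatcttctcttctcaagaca
mt-Ts1: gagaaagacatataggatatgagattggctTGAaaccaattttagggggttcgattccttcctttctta

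The libraries held 21193536 to 23809256 estimated counts. Levels are given as CPM, the count scaled to a common library size. Stk4, the mouse gene of the Mst1 kinase, averaged 27.2 ± 1.88 CPM (SD, n = 4) over the WT libraries against 1606 ± 130 CPM with the transgene, in the direction of the labels. All 10 cardiomyocyte markers were detected in every library, and their summed level ranged over 51110 to 61730 CPM in WT against 37682 to 48767 CPM in Mst1-TG, with 5 of 10 lower, where 21.1% of all 15314 tested genes were lower and 21.2% higher. All 8 fibroblast markers were higher, with a summed level of 2577 to 3432 CPM in WT and 6179 to 8602 CPM in Mst1-TG. Of 7 endothelial genes 3 were lower (summed 1665 to 2097 and 1246 to 1804 CPM), and of 6 smooth muscle and pericyte genes 2 were higher and 2 lower (1475 to 1825 and 1075 to 1315 CPM). Of 4 atrial genes 3 were lower and 1 higher, the stress-responsive Nppa. The summed leukocyte (195 to 250 and 188 to 269 CPM) and red blood cell markers (5850 to 14893 and 3587 to 7643 CPM) overlapped between the groups, and no marker of any list was at 0 in all libraries. With library totals as scaling, 7400 of all 15314 tested genes were higher and 1593 lower (median log2 fold change 0.29). On that scale 3 cardiomyocyte markers were lower and 2 higher (median -0.04), and 0 endothelial and 1 atrial markers were lower. Of the leukocyte markers 3 were higher, and of the smooth muscle and pericyte markers 3 were higher and 1 lower. Again all 8 fibroblast markers were higher. In whole tissue, fewer cells of a type and less RNA per cell cannot be told apart. WT 4 stood apart from the other WT libraries in several short mitochondrial genes, as given below, and results that rest on it are given with and without it.

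The summed counts of each class of mitochondrial genes took a lower share of all counts in Mst1-TG. The protein genes read from the heavy strand took 22.1% ± 1.07 of all counts in WT and 13.2% ± 0.657 in Mst1-TG (SD, n = 4 each). The light-strand gene mt-Nd6 took 0.322% ± 0.0435 and 0.204% ± 0.0196. The rRNA genes took 0.4651%, 0.4800%, 0.5167% and 0.4691% in WT 1 to 4 and 0.1849%, 0.2147%, 0.2009% and 0.1665% in Mst1-TG 1 to 4. The tRNA genes took 0.00985% ± 0.000536 and 0.00515% ± 0.000521, and 88.4% of their counts fell on mt-Tp. The other 7 light-strand tRNA genes held 265, 294, 282 and 95 counts in WT 1 to 4. In Mst1-TG 1 to 4 they held 97, 140, 139 and 99, so these groups overlapped. For each class every Mst1-TG library lay below every WT library (exact permutation test over libraries, two-sided, p = 0.0286 for each, which is the lowest value 4 libraries a group allow; Benjamini-Hochberg adjusted p = 0.0286).

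Of the 37 genes, 21 had enough counts for the test across all genes, namely the 13 protein genes, both rRNA genes and 6 of the 8 light-strand tRNA genes, while none of the 14 heavy-strand tRNA genes did. Lower levels in Mst1-TG passed an edgeR adjusted p of 0.05 for 17 of the 21 (18 with DESeq2, 16 with limma-voom), where 21.1% of all 15314 tested genes were lower and 21.2% higher. All 21 had a negative log2 fold change (Mst1-TG over WT) with each of these tools. In 15 of the 21, all Mst1-TG libraries lay below all WT libraries, against 20.1% of all tested genes. The median tested nuclear gene had a log2 fold change of 0.01. The genes that did not pass were mt-Atp8, mt-Nd4l, mt-Tc and mt-Te, and all 4 passed, all of them lower, when WT 4 was left out.

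**Figure D1:**
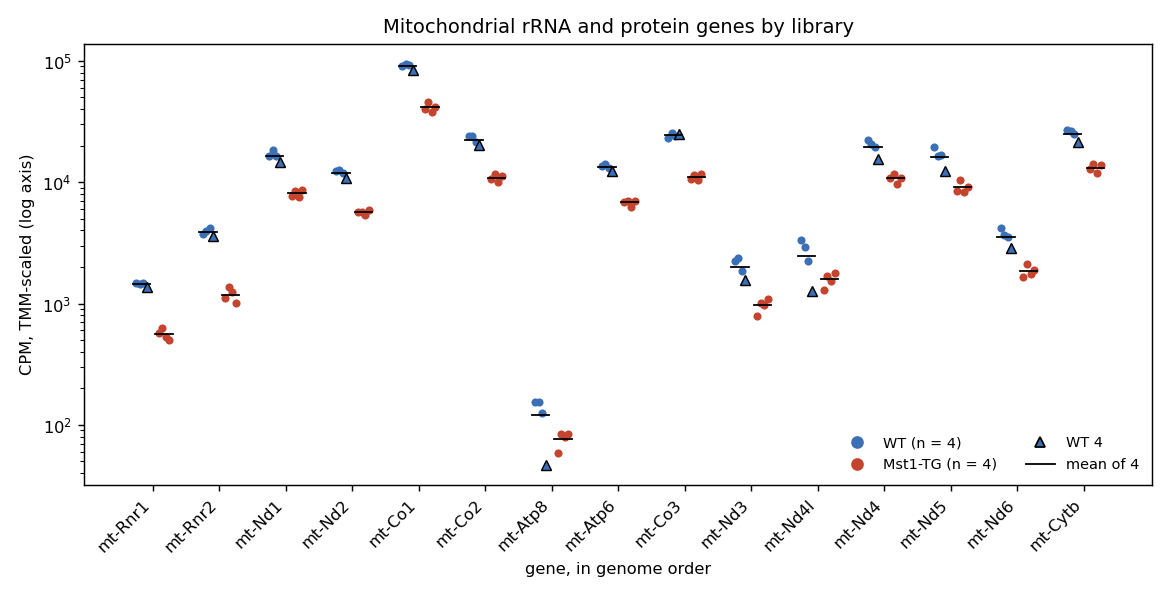
Level of the 2 rRNA and 13 protein genes in each library, in TMM-scaled CPM on a log axis, with genes in genome order and a bar at the mean of 4 libraries. The triangle marks WT 4, which lies below all Mst1-TG libraries for mt-Nd4l and mt-Atp8, while for the other 13 genes every Mst1-TG point is below every WT point.

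The ribosomal RNAs were the most reduced of the rRNA and protein genes. mt-Rnr1 (12S rRNA, chrM:70-1024) is the RNA of the small mitochondrial ribosomal subunit and lies first in the heavy-strand transcript after mt-Tf. Its level was 1488, 1453, 1488 and 1370 CPM in WT 1 to 4 and 573, 628, 526 and 499 CPM in Mst1-TG 1 to 4, a log2 fold change of -1.38 ± 0.08 (SE; edgeR adjusted p = 6e-08). mt-Rnr2 (16S rRNA, chrM:1094-2675), the RNA of the large subunit, was at 3733, 3932, 4222 and 3633 CPM in WT and 1101, 1357, 1249 and 1020 CPM in Mst1-TG (log2 fold change -1.72 ± 0.10, adjusted p = 4.6e-08). For both genes the highest Mst1-TG library was far below the lowest WT library.

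Ribosomal RNA was removed before library construction, so these rows hold what depletion left and are not the rRNA content of the tissue. Beside them, 354 rows annotated as rRNA outside the mitochondrial genome held together 1953, 2445, 2778 and 2075 counts in WT 1 to 4 and 1660, 1748, 2050 and 2313 counts in Mst1-TG 1 to 4. These groups overlapped. The part of depletion in the difference of mt-Rnr1 and mt-Rnr2 was not tested.

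Complex I (NADH dehydrogenase) passes electrons from NADH to ubiquinone, and 7 of its subunits are mitochondrially encoded. mt-Nd1, mt-Nd2 and mt-Nd3 were lower, with log2 fold changes of -1.02 ± 0.09, -1.08 ± 0.08 and -1.05 ± 0.14 (adjusted p = 1.4e-06, 2.9e-07 and 5.3e-05). mt-Nd4 and mt-Nd5 were lower too, at -0.86 ± 0.11 and -0.84 ± 0.13 (adjusted p = 3.2e-05 and 1.7e-04). WT 4 was the lowest WT library for all 5 genes. mt-Nd5 was at 19441, 16590, 16787 and 12278 CPM in WT 1 to 4 and 8532, 10428, 8363 and 9159 CPM in Mst1-TG 1 to 4. The groups did not overlap for any of these 5 genes.

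mt-Nd4l is among the shortest subunit genes of complex I, and its groups overlapped. It was at 3323, 2943, 2243 and 1280 CPM in WT 1 to 4 and 1298, 1700, 1537 and 1792 CPM in Mst1-TG 1 to 4. WT 4 was below every Mst1-TG library, and the other WT libraries were above all of them. The log2 fold change was -0.63 ± 0.27 (adjusted p = 0.092) with all libraries and -0.84 ± 0.14 (adjusted p = 6.8e-04) without WT 4.

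mt-Nd6 is the complex I subunit read from the light strand. Its counts were 89406, 70984, 74055 and 57053 in WT 1 to 4 and 40885, 49199, 42793 and 45297 in Mst1-TG 1 to 4. In CPM every Mst1-TG library was below every WT library (1655 to 2121 against 2871 to 4216), and mt-Nd6 fell by 0.95 ± 0.12 on the log2 scale (adjusted p = 2.4e-05). How reads were assigned to strands is not given in the sources used here, so mt-Nd6 counts may include reads from heavy-strand RNA across the same bases.

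mt-Cytb, the cytochrome b of complex III and the only mitochondrially encoded subunit there, was at 27041, 26175, 24973 and 21271 CPM in WT 1 to 4 and 12790, 14062, 11839 and 13743 CPM in Mst1-TG 1 to 4. It fell by 0.92 ± 0.10 on the log2 scale (adjusted p = 6e-06). Complex IV (cytochrome c oxidase) hands the electrons to oxygen, and mt-Co1, mt-Co2 and mt-Co3 form its catalytic core. mt-Co1 was the most abundant member, at 91460, 94204, 92680 and 84596 CPM in WT 1 to 4 and 40279, 45429, 37556 and 41914 CPM in Mst1-TG 1 to 4. It fell by 1.14 ± 0.09 (adjusted p = 4.6e-07), mt-Co2 by 1.04 ± 0.09 (adjusted p = 1e-06) and mt-Co3 by 1.13 ± 0.08 (adjusted p = 2e-07). The groups of all 4 genes were separate.

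mt-Atp6 and mt-Atp8 encode subunits of the membrane part of ATP synthase (complex V). mt-Atp6 was at 13696, 14225, 13063 and 12429 CPM in WT 1 to 4 and 6842, 7025, 6302 and 7061 CPM in Mst1-TG 1 to 4, and fell by 0.97 ± 0.08 (adjusted p = 7.1e-07). mt-Atp8, the shortest protein gene at 204 bases, had 3290, 2982, 2647 and 935 counts in WT 1 to 4 and 1454, 1937, 1966 and 2023 counts in Mst1-TG 1 to 4. WT 4 again lay below every Mst1-TG library. The log2 fold change of mt-Atp8 was -0.65 ± 0.37 (adjusted p = 0.22) with all libraries and -0.92 ± 0.13 (adjusted p = 2.6e-04) without WT 4.

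**Figure D2:**
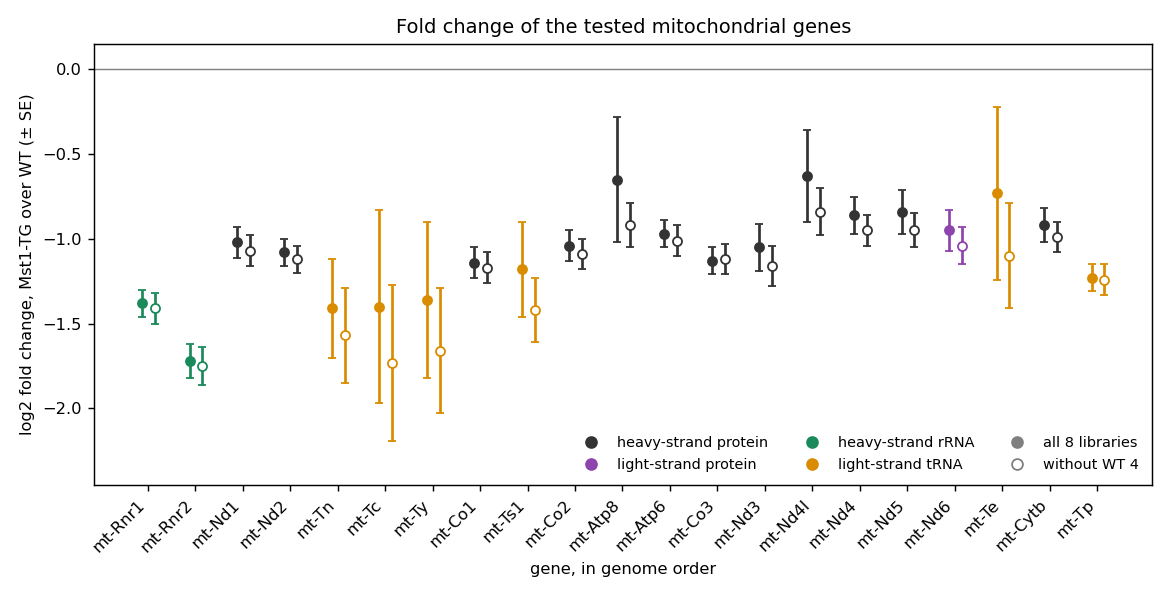
Log2 fold change of the 21 tested genes, Mst1-TG over WT, with its SE, in genome order and coloured by class and strand. Filled points use all 8 libraries and open points leave out WT 4, which moves mt-Atp8 from -0.65 to -0.92 and mt-Te from -0.73 to -1.10 while mt-Tp and mt-Co3 stay within 0.01.

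Divided by gene length, the protein transcripts formed an uneven series in both groups. In WT, mt-Co1 was highest at 58728 ± 2747 CPM per kb (SD, n = 4), followed by mt-Co2 at 32770 ± 2889 and mt-Co3 at 30980 ± 1380, whose libraries overlapped. mt-Cytb at 21735 ± 2222, mt-Atp6 at 19608 ± 1142 and mt-Nd1 at 17248 ± 1621 came next. mt-Nd4 (14139 ± 2031), mt-Nd2 (11514 ± 760), mt-Nd5 (8922 ± 1625), mt-Nd4l (8240 ± 3022), mt-Nd6 (6873 ± 1065) and mt-Nd3 (5785 ± 1065) completed the series. From mt-Cytb down to mt-Nd3 each gene overlapped the next across the WT libraries. mt-Nd4l and mt-Nd4 share 7 bases on the same strand, so their levels per kb cannot be read as amounts of separate RNAs. mt-Atp8 was lowest at 591 ± 249 CPM per kb. It shares a transcript with mt-Atp6, so its level per kb cannot be read as the amount of its RNA. Of the shorter genes, mt-Tp (67 bases) was higher in WT, at 1438 ± 82.0 CPM per kb. The other tested tRNA genes were lower, with mt-Ts1 (69 bases) at 74.5 ± 28.6. The part of gene length in the low level of mt-Atp8 was not tested.

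In Mst1-TG the order was mt-Co1 (26728 ± 2130 CPM per kb), mt-Co2 (15892 ± 992), mt-Co3 (14135 ± 743), mt-Cytb (11459 ± 878), mt-Atp6 (9996 ± 515) and mt-Nd1 (8499 ± 565), as in WT. mt-Nd4 followed at 7812 ± 551, and mt-Nd2 (5461 ± 205), mt-Nd4l (5325 ± 728) and mt-Nd5 (5000 ± 513) overlapped across the libraries. mt-Rnr2 was at 2453 ± 164 CPM per kb in WT and 747 ± 95.1 in Mst1-TG, and mt-Rnr1 at 1518 ± 58.6 and 582 ± 59.5, after depletion.

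As a share of all mitochondrial protein counts, mt-Co1 took 36.6% ± 1.23 in WT and 34.0% ± 0.572 in Mst1-TG (SD, n = 4 each). mt-Nd4 took 7.83% ± 0.630 and 8.87% ± 0.237, and mt-Cytb 10.01% ± 0.355 and 10.8% ± 0.162. Across the 12 heavy-strand protein genes the log2 fold change had a Pearson r of 0.42 and a Spearman rho of 0.52 with the start position (0.49 and 0.49 without WT 4), so that the less negative values lay more often towards the 3′ end of the precursor. This is a description over neighbouring genes of shared precursors in the same 8 libraries, without a test.

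To ask which mitochondrial genes moved more or less than the mRNAs of the heavy strand, each library was also scaled by the geometric mean of its 12 heavy-strand protein genes, which then average to a log2 fold change of 0 by construction. On this scale, where 1.85% of all tested genes were lower and 83.3% higher, mt-Rnr1 (-0.46 ± 0.16, adjusted p = 0.0036) and mt-Rnr2 (-0.80 ± 0.15, adjusted p = 3e-07) were lower. mt-Atp8 (0.33 ± 0.15, adjusted p = 0.039) and mt-Nd4l (0.34 ± 0.15, adjusted p = 0.030) were higher, but without WT 4 they were at 0.11 and 0.19 (adjusted p = 0.35 and 0.11). Both calls were also lost with no count filter (adjusted p = 0.069 and 0.068), with scaling by the sum of the heavy-strand counts (0.26 and 0.094) and without any one of Mst1-TG 2, 3 or 4 or WT 3 (adjusted p = 0.053 to 0.13). With scaling by the sum, 2 other mitochondrial genes were higher, where 13392 of all 15314 tested genes were higher. With scaling by the geometric mean, the other 17 genes did not pass, with values from -0.47 to 0.25. Among these were mt-Co1 (-0.22 ± 0.13, adjusted p = 0.097), mt-Nd4 (0.08 ± 0.14, adjusted p = 0.59), mt-Nd6 (-0.01 ± 0.15, adjusted p = 0.93) and mt-Tp (-0.32 ± 0.16, adjusted p = 0.051).

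The ratio of summed rRNA counts to heavy-strand protein counts needs no scaling between libraries. It was 2.046%, 2.089%, 2.330% and 2.277% in WT 1 to 4 and 1.440%, 1.544%, 1.614% and 1.232% in Mst1-TG 1 to 4. The groups did not overlap, and the difference was -0.59 on the log2 scale (exact permutation test, two-sided, p = 0.0286, adjusted over the 11 ratios tested p = 0.105). The lowest p of the design, shared by several ratios, therefore did not pass after adjustment. The ratio of mt-Rnr1 to mt-Rnr2, neighbours in the same precursor, was 0.374 ± 0.0192 in WT and 0.473 ± 0.0418 in Mst1-TG (log2 difference 0.34, exact permutation p = 0.0286, adjusted p = 0.105), again without overlap. mt-Rnr2 was thus lower in proportion than mt-Rnr1 in all Mst1-TG libraries.

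The strands did not separate in the ratio of mt-Nd6 to the heavy-strand protein genes, which was 1.45% ± 0.144 in WT and 1.55% ± 0.0953 in Mst1-TG (log2 difference 0.09, exact permutation p = 0.314, adjusted p = 0.432). The ratio of tRNA to protein counts differed by -0.19 (exact permutation p = 0.0571, adjusted p = 0.157). For the overlapping pairs, mt-Atp8 over mt-Atp6 differed by 0.45 (exact permutation p = 0.314, adjusted p = 0.432) and mt-Nd4l over mt-Nd4 by 0.29 (exact permutation p = 0.2, adjusted p = 0.367). Both pair ratios were lowest in WT 4, and without it the differences were 0.08 and 0.11.

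**Figure D3:**
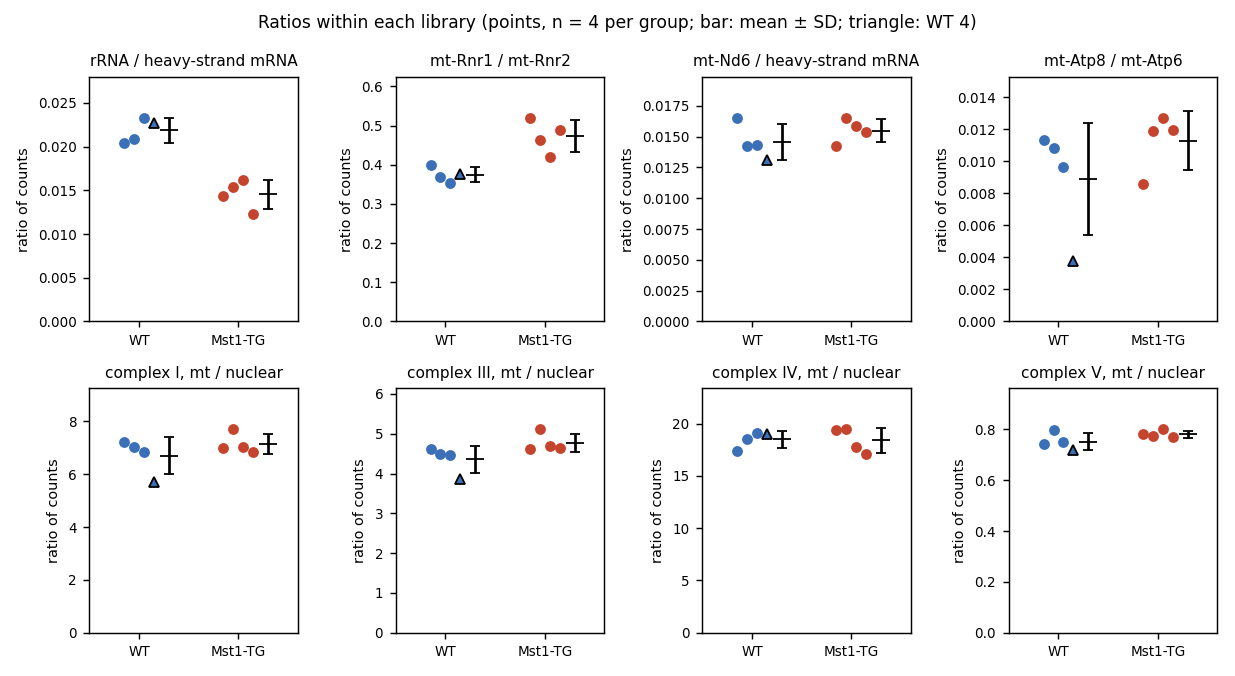
Ratios of counts within each library, each panel starting at 0, with the mean and SD of 4 libraries beside the points and a triangle for WT 4. The rRNA ratio is 0.0219 in WT and 0.0146 in Mst1-TG and does not overlap, whereas the ratios of mitochondrial to nuclear subunits of complexes I, IV and V overlap between the groups.

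Mature tRNAs are shorter than the fragments that such libraries usually keep. The 22 tRNA genes held 13371 counts over the 8 libraries. Of these, 99.0% fell on the 8 light-strand genes and 88.4% on mt-Tp alone. mt-Tp had 2193, 1760, 2056 and 1855 counts in WT 1 to 4 and 872, 1039, 1005 and 1046 in Mst1-TG 1 to 4. It fell by 1.23 ± 0.08 on the log2 scale (adjusted p = 8.8e-08), with every Mst1-TG library at 35.3 to 44.8 CPM and every WT library at 90.9 to 103 CPM. WT 4 was at 95.9% of the mean of the other WT libraries for mt-Tp, so the low WT 4 values of other short genes were not seen there.

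mt-Ts1 had 113, 135, 124 and 47 counts in WT 1 to 4 and 52, 60, 64 and 42 in Mst1-TG 1 to 4. WT 4 was within the Mst1-TG range and the other WT libraries were above it (log2 fold change -1.18 ± 0.28, adjusted p = 0.0049). The asparagine tRNA mt-Tn had 47, 34, 45 and 24 counts in WT and 13, 15, 23 and 15 in Mst1-TG (-1.41 ± 0.29, adjusted p = 0.0015), and its groups were separate in CPM. The tyrosine tRNA mt-Ty had 17, 31, 25 and 6 counts in WT and 6, 10, 10 and 10 in Mst1-TG (-1.36 ± 0.46, adjusted p = 0.028), a call that was lost under scaling by library totals, in limma-voom and without any one of Mst1-TG 1, 3 or 4 or WT 2 or 3 (adjusted p = 0.051 to 0.11).

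The cysteine tRNA mt-Tc had 41, 34, 43 and 7 counts in WT and 11, 25, 16 and 3 in Mst1-TG (-1.40 ± 0.57, adjusted p = 0.071, and -1.73 ± 0.46 with adjusted p = 0.010 without WT 4). The glutamate tRNA mt-Te had 37, 48, 31 and 4 counts in WT and 14, 24, 20 and 27 in Mst1-TG (-0.73 ± 0.51, adjusted p = 0.28, and -1.10 ± 0.31 with adjusted p = 0.015 without WT 4). Genes such as mt-Tn and mt-Ts1 could enter the test through their WT libraries alone. For mt-Tc, mt-Ty and mt-Te, WT 4 held 7, 6 and 4 counts, below the minimum of 10, so Mst1-TG libraries counted towards their entry. With so few counts, the number of tRNA genes that passed describes these rows and is no support for a difference of the class. The remaining light-strand genes mt-Ta and mt-Tq held 43 and 15 counts in all and were not tested.

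The 14 heavy-strand tRNA genes held 134 counts together, 23, 28, 23 and 8 in WT 1 to 4 and 11, 11, 20 and 10 in Mst1-TG 1 to 4, with at most 9 for a gene in any library. mt-Tv, mt-Td and mt-Tt were at 0 in all 8. The heavy-strand and light-strand tRNA genes were thus unevenly represented although both are of similar length. Without a stated strand setting, reads from a tRNA and from RNA of the opposite strand cannot be told apart, and the ratio of the strands was not tested because a library held as few as 8 heavy-strand tRNA counts.

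**Figure D4:**
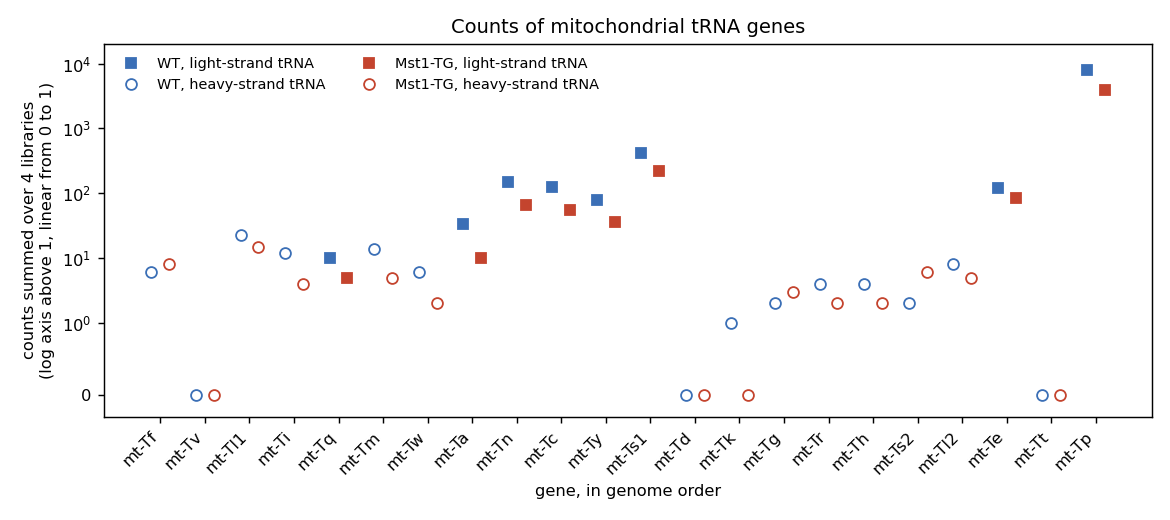
Counts of the 22 tRNA genes summed over 4 libraries per group, in genome order, on an axis that is logarithmic above 1 and linear from 0 to 1. Squares are light-strand genes and open circles heavy-strand genes. mt-Tp holds 7864 counts in WT and 3962 in Mst1-TG, and mt-Tv, mt-Td and mt-Tt lie at 0.

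WT 4 was far below the other WT libraries in several short mitochondrial genes, though not in step with length. It reached 10.6% of their mean for mt-Te, 18.4% for mt-Tc, 25.2% for mt-Ty, 32.5% for mt-Atp8, 39.0% for mt-Ts1 and 45.1% for mt-Nd4l. It reached 72.8% for mt-Nd3 and 69.7% for mt-Nd5, the longest protein gene, and 95.9% for the short mt-Tp. It reached 75.2% for mt-Nd4, 91.2% for mt-Co1, 92.7% for mt-Rnr1 and 104% for mt-Co3. In log2 units the median of the 3 mitochondrial protein genes under 400 bases was -1.15 in WT 4 and that of the 10 longer ones -0.21, relative to the other libraries of the group. For 35 nuclear protein-coding genes under 400 bases the median in WT 4 was -0.06, so nuclear genes of that length were not low there.

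Copies of mitochondrial genes in the nuclear genome can take reads from them. In the GENCODE M21 transcripts, 11 nuclear pseudogenes matched a mitochondrial gene with at least 95% identity over at least 80% of their length. Of these, 3 passed the count filter and 8 held under 150 counts in all, with Gm13340 in both sets. Gm28438, a copy of mt-Nd3, did not pass and held 371 counts, of which 338 were in WT 3 and 33 in WT 4. Gm29216 (chr1:24615706-24616197, reverse strand) is a copy of the end of mt-Co1, with 483 aligned bases at 99.8% identity. The copy and the gene are shown around their last difference, A1066T, where the mt-Co1 base comes first, positions count from 1 at the 5′ end of mt-Co1, and capitals mark the base. After it, 479 bases are identical.
mt-Co1: ggtctaaccggaAttgttttatcca
Gm29216: ggattggcaggaTttgttttatcca

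Gm29216 had 116166, 115325, 112911 and 117257 counts in WT 1 to 4 and 55191, 60204, 53747 and 51087 in Mst1-TG 1 to 4, a log2 fold change of -1.31 ± 0.09 (adjusted p = 1e-07). That was 6.27% ± 0.520 of the mt-Co1 count in WT and 5.54% ± 0.324 in Mst1-TG. Gm28661 (chr1:24614885-24615565) equals mt-Co2 over all of its 681 bases and varied widely within groups. It had 1518, 10707, 14868 and 388 counts in WT and 365, 1703, 1821 and 15213 in Mst1-TG, which is 0.0972% to 5.68% of mt-Co2 (log2 fold change -0.76 ± 1.48, adjusted p = 0.73). Gm13340, a copy of the whole of mt-Co1, held 134 counts in all (-0.98 ± 0.41, adjusted p = 0.074). With the counts of all copies added to their mitochondrial genes, 17 members were lower as before.

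Mitochondrially and nuclear-encoded subunits of the same complexes were compared next, because each complex needs both. The median log2 fold change of the 13 mitochondrial protein genes was -0.97. Among all 15314 tested genes 21.1% were lower. All 36 nuclear complex I subunits tested were lower (median -1.03), as were 9 of 9 of complex III (-0.96), 11 of 11 of complex IV (-1.07) and 15 of 15 of complex V (-0.97). The values ranged from -0.45 for Uqcr10 of complex III to -1.76 for Cox7a1, the heart and muscle form of a complex IV subunit. The complex IV list held Cox6a2, Cox7a1 and Cox8b without their paralogues Cox6a1, Cox7a2 and Cox8a, so its counts and ratio cover these forms only. Mitochondrial protein genes ranged from -1.14 for mt-Co1 to -0.63 for mt-Nd4l.

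The ratio of mitochondrial to nuclear-encoded subunit counts over complexes I, III, IV and V was 5.93 ± 0.257 in WT and 5.97 ± 0.230 in Mst1-TG (log2 difference 0.01, exact permutation p = 0.857, adjusted p = 0.943). For complex I it was 6.70 ± 0.686 and 7.14 ± 0.383 (exact permutation p = 0.457, adjusted p = 0.559), for complex IV 18.5 ± 0.804 and 18.4 ± 1.19 (exact permutation p = 0.943, adjusted p = 0.943) and for complex V 0.752 ± 0.0324 and 0.782 ± 0.0135 (exact permutation p = 0.143, adjusted p = 0.314). Complex III was the exception in that its groups did not overlap, with 4.36 ± 0.332 in WT and 4.77 ± 0.231 in Mst1-TG. The gap was narrow, 4.615 in the highest WT and 4.628 in the lowest Mst1-TG library (log2 difference 0.13, exact permutation p = 0.0286, adjusted p = 0.105). WT 4 was the lowest WT library for complexes I, III and V and for the 4 complexes together. Without it the log2 differences of complexes I, III and V went from 0.10 to 0.02, from 0.13 to 0.08 and from 0.06 to 0.04. That of the 4 together went from 0.01 to -0.02.

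The mitochondrial protein counts were 4.33 ± 0.0689 times the summed counts of the 10 cardiomyocyte markers in WT and 2.81 ± 0.173 times in Mst1-TG (SD, n = 4 each). The Mst1-TG libraries lay between 2.64 and 2.96 and the WT libraries between 4.24 and 4.40. The mitochondrial protein counts were thus lower also relative to the sum of these markers. Myh6 held the largest part of that sum, at 18740 to 23454 CPM in WT. The single markers, 5 of which were lower, had log2 fold changes from -1.33 to 0.07 (median -0.33). The median of the mitochondrial protein genes was -0.97, so they were not lower relative to every marker. The part of the higher fibroblast markers in the lower mitochondrial share was not tested.

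Nuclear genes that serve mitochondrial DNA and RNA were counted in 6 lists, to be read against the 21.1% of all tested genes that were lower and their median of 0.01. Of 10 genes for mitochondrial transcription 7 were lower and 3 did not pass (median -0.61). The RNA polymerase Polrmt was at -0.66 ± 0.09, the packaging and initiation factor Tfam at -0.46, the initiation factor Tfb2m at -0.64 and the elongation factor Tefm at -0.57 (adjusted p = 6.1e-05, 8.5e-05, 1e-05 and 1.8e-04). Mrpl12, a ribosomal protein that also binds Polrmt, was at -0.95 and Mterf2 of the termination factor family at -1.30 (adjusted p = 6.3e-07 and 2.3e-05).

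Of 13 RNA processing genes 11 were lower and 2 did not pass (median -0.68). Hsd17b10, a subunit of mitochondrial RNase P, was at -0.87 (adjusted p = 9.4e-07) and Elac2, the nuclease that cuts the 3′ end of tRNAs, at -0.22 (adjusted p = 0.035), a call lost with library totals, without a count filter and without any one of Mst1-TG 2, 3 or 4 or WT 2 or 4. Prorp, the RNase P nuclease itself, was at 0.04 (adjusted p = 0.84). Fastk and Tbrg4 of the FASTK family of mitochondrial RNA-binding proteins were both at -0.95 (adjusted p = 1.7e-07 and 1.2e-07) and the RNA-binding protein Ptcd2 at -0.69 (adjusted p = 1.5e-06).

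Of 10 genes for RNA stability and decay 8 were lower and 2 did not pass (median -0.55). Lrpprc, which holds mitochondrial mRNAs stable and supports their polyadenylation, was at -1.06 and its partner Slirp at -0.56 (adjusted p = 5.3e-07 and 0.0018). The poly(A) polymerase Mtpap was at -0.25 and the RNA granule protein Grsf1 at -0.60 (adjusted p = 0.017 and 9.8e-06). The helicase Supv3l1, part of the mitochondrial RNA degradosome, was at -0.76 and the mitochondrial nuclease Endog at -0.85 (both adjusted p = 1.5e-06).

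Of 12 genes for rRNA modification and ribosome assembly 11 were lower and 1 did not pass (median -0.61). Mrm3, which methylates 16S rRNA, was at -1.31 (adjusted p = 1.4e-06), and the rRNA methyltransferases Trmt2b and Nsun4 were at -0.87 and -0.70 (adjusted p = 3.2e-07 and 7.3e-05). Eral1, a GTPase that binds 12S rRNA, was at -0.61 (adjusted p = 4.1e-04). The 2 rRNAs they act on, mt-Rnr1 and mt-Rnr2, were lower as well.

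Fewer members passed in the other lists. Of 18 genes for tRNA modification 6 were lower and 12 did not pass (median -0.14), the lower ones including Mto1 (-0.72) and Trmu (-0.60), which modify the wobble uridine, and Osgepl1 (-0.85) and Trmt5 (-0.87), which modify the base beside the anticodon. Of 15 genes for replication and maintenance of mitochondrial DNA 5 were lower, 1 was higher and 9 did not pass (median -0.12). The polymerase Polg was at -0.27, the helicase Twnk at -0.58, the nuclease Mgme1 at -0.68 and the nucleoside kinase Dguok at -0.52 (adjusted p = 0.0049, 3.2e-04, 1.8e-04 and 4.6e-04). The higher gene, Primpol, a primase-polymerase, was at 0.50 (adjusted p = 0.047) and is named because it was the only one. The sign of the smaller values rests on how libraries were scaled. Scaling by library totals alone moved the median of all tested genes from 0.01 to 0.29 and the calls from 3244 higher and 3238 lower to 7400 and 1593. Polg, Elac2 and Mtpap were then at 0.01, 0.07 and 0.04 and did not pass. On that scale 16 mitochondrial genes were lower and 0 higher.

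**Figure D5:**
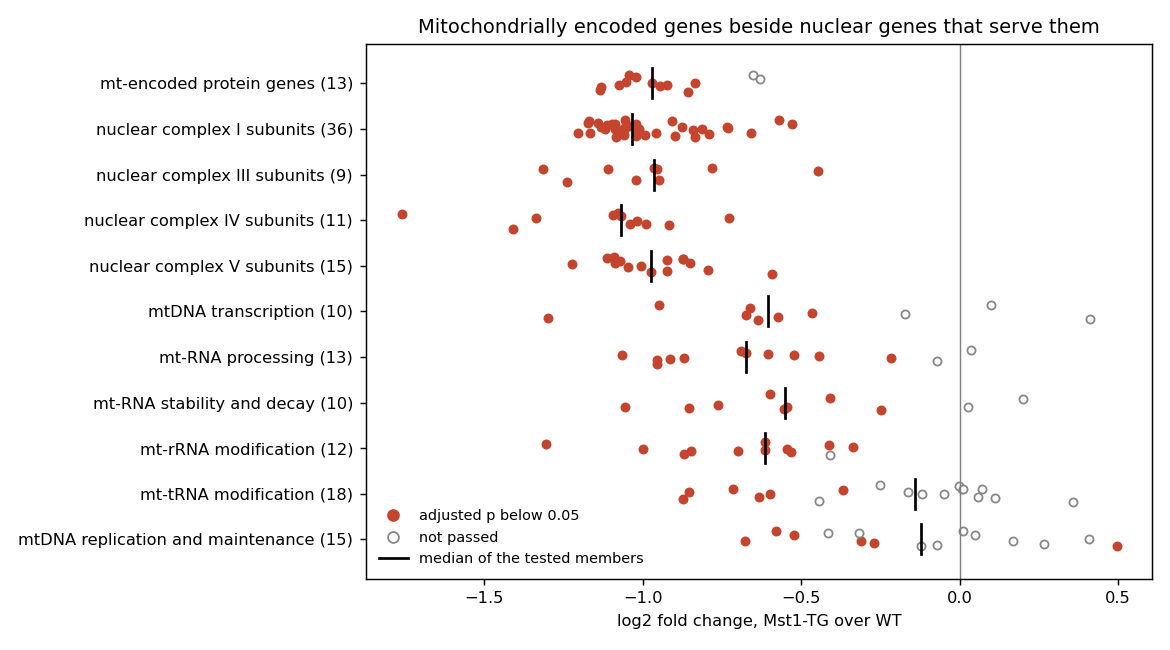
Log2 fold change of the tested genes of each list, Mst1-TG over WT, as points, filled where the adjusted p was below 0.05, with the median as a bar and the number of tested genes in brackets. The mitochondrially encoded protein genes (median -0.97) lie in the range of the nuclear subunits of complexes I, III, IV and V (medians -1.07 to -0.96), and the lists for tRNA modification and replication are centred near 0 (medians -0.14 and -0.12).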

How the data were processed

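RNA-seq of 4 Mst1-TG and 4 WT libraries was used; groups were taken from the sample titles. Per the labels' protocols, ribosomal RNA was removed from 200 ng of total RNA and strand-keeping libraries were built. The submitters' processing notes name bcl2fastq 2.19.1.403 and kallisto 0.46.0, a pseudoaligner. Not given in the sources used here are the build, annotation, strand setting, read filters and summing of transcripts to genes. The deposited table holds estimated counts, whole numbers without scaling for depth, for 55385 genes. The 6 values of 1000000 or more all end in 0.

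Tests used edgeR 4.0.16 (R 4.3.3): filterByExpr (minimum count 10, minimum total 15; 15314 genes tested), TMM factors (0.891 to 0.938 in WT, 1.08 to 1.13 in Mst1-TG), robust quasi-likelihood F tests, and Benjamini-Hochberg adjustment over all genes tested with a threshold of 0.05. The biological coefficient of variation was 11.4%. Log2 fold changes compare Mst1-TG with WT and carry their SE, and CPM are TMM-scaled. Shares and ratios of counts were compared by exact permutation of the libraries. Alternatives were other scalings, DESeq2 1.42.0, limma-voom (limma 3.58.1), no filter, a replicate block, copies added to their genes, and each library left out. The procedure was tested on simulated counts. Positions and sequences come from GENCODE M21 (GRCm38), whose identifiers and versions match 54487 rows. Python 3.11.15 with scipy 1.17.1 was used for the exact tests.

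The members and gene lists were chosen with earlier results of these data known. Named are every mt- row, Stk4, up to 4 called genes with the smallest p from each of the 6 lists on mitochondrial DNA and RNA, Polrmt, Tfam, Tfb2m, Tefm, Polg, Twnk, Lrpprc, Slirp, Elac2 and Mtpap whatever their change, and copies that passed the filter; others named were picked after their values were seen. Nothing in the labels ties each library to its own animal, and p-values reflect only how these samples spread, which may be technical. Any 2 libraries of a group differed beyond sampling noise (chi-square over its degrees of freedom, 7.92 to 23.4). Libraries with the same number in both groups did not deviate together (correlations -0.16 to 0.07), so they were not treated as pairs.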

Additional observations from a re-analysis of the deposited data

Results flagged for a closer look

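Among 80 groups of 4 libraries examined, 4 held a library far from the other 3, where chance gives about 1 in 20. For mt-Tc, WT 4 was at 0.352 CPM, far below the other WT libraries. For mt-Ty, Mst1-TG 1 was at 0.243 CPM, below the other Mst1-TG libraries, where 6 counts stood against 10 in each of them. For the ratio of mitochondrial to nuclear-encoded complex III counts, Mst1-TG 2 was at 5.113, above the other Mst1-TG libraries. For Gm28661, the nuclear copy of mt-Co2, Mst1-TG 4 was at 635 CPM, above the other Mst1-TG libraries.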

How the results depend on the processing

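Without each library in turn, 16 to 21 mitochondrial genes were lower and 0 higher, and 16 to 19 under the other alternatives. With a replicate block 18 were lower, as mt-Tc passed, and the calls against the heavy-strand mRNA level were 2 lower and 2 higher, as before; same-numbered libraries did not deviate together. Against that level 0 genes were higher with no count filter, and 0 to 2 without each library in turn. With scaling by the sum of the heavy-strand counts 2 were higher, which did not include mt-Atp8 or mt-Nd4l. The share of mitochondrial counts differed by -9.36 percentage points, and by -9.89 to -9.07 without each library in turn, where 3 against 4 libraries cannot give an exact permutation p below 0.0571. No ratio passed under any alternative, but with a library left out none could, because of the same limit of 0.0571. With all 8 libraries a ratio could pass adjustment only if most ratios sat at the lowest exact permutation p of 0.0286. These alternatives therefore cannot show whether the ratios are stable. With the mean of logs over members, the ratio of mt-Nd6 to heavy-strand genes went from 0.09 to -0.01, that of tRNA to protein genes from -0.19 to 0.12 and that of complex IV from -0.01 to 0.03. Without each library in turn, complex IV ranged from -0.04 to 0.03 and the 4 complexes together from -0.02 to 0.03. With library totals only, Polg, Elac2 and Mtpap turned to 0.01, 0.07 and 0.04. On that scale 7400 of all 15314 tested genes were higher and 1593 lower. Beside that, the lists held 1 higher gene in transcription, 2 higher in RNA processing, and 5 lower and 2 higher in stability. Of 15 replication genes 3 were lower and 7 higher, of 18 tRNA modification genes 8 were higher, and in rRNA modification 7 were lower. The cause was not tested. tRNA rows with under 50 counts in a library limit what can be seen.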
